A study of Homo sapiens with 96 samples.

Results

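Unannotated intronic editing sites were the adenosines that the study's list of A-to-I editing sites places in an intron and types as unannotated, that is, absent from the editing databases the authors consulted. The rule used these 2 entries of the list alone and no measured level. It selected 638 of the 4149 listed sites, of which 610 had an editing level column entry from RNA-seq and 28 were found by Sanger sequencing only and carry no level. The list also holds 2209 annotated intronic sites, all with levels, which were the main reference, and 252 unannotated sites in very long intergenic non-coding RNAs (vlincRNAs). The intronic call was checked against GENCODE release 44: 605 of the 638 sites lay under exactly 1 protein-coding gene on their strand, and 0 lay in an exon of the assigned host gene.

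Adenosine deaminases acting on RNA (ADARs) convert adenosine into inosine within double-stranded RNA, and inosine is read as guanosine, so that editing appears in RNA-seq as an A-to-G change. Introns are edited before or during splicing, and most known intronic editing lies in inverted repeats that fold back on each other. ADARs are known to disfavor a guanosine directly before the edited adenosine.

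The levels came from total RNA, depleted of ribosomal RNA, of K562 cells, a human erythroleukemic line, and of stable derivative lines of it. The 96 samples covered 93 conditions, 90 of them with 1 sample and 3 with 2, in 10 library sets. In parental cells the largest set was a time course of 20 samples with imatinib, etoposide, romidepsin or the vehicle DMSO for 6, 12, 24, 36 or 48 h. A set of 19 samples received DMSO, Talazoparib, SN-38, Etoposide or Cyclophosphamide for 6 h and then actinomycin D, an inhibitor of transcription, for 0 to 6 h. A set of 11 samples received alpha-amanitin, an inhibitor of RNA polymerase II, for 0 to 6 h, alone or after 6 h of DMSO or etoposide, beside 1 DMSO sample. A set of 10 samples was pretreated for 3 h with DMSO or with the kinase inhibitors AZ-20, KU-60019 and NU7441 together, and then received DMSO, Talazoparib, Mirin, SN-38 or Etoposide. The remaining parental sets were a washout of DMSO, SN-38 or etoposide (9 samples), actinomycin D alone beside DMSO and an untreated sample (5 samples), the mTOR inhibitors rapamycin and Torin1 (4 samples), and romidepsin for 3 or 6 h (2 samples). The 16 derivative-line samples carried Cas9_overexpression, LINE_overexpression, AsiSI-overexpression or shRNA knockdown (KD) of CSB, LIG3 or MRE11A, each under doxycycline or water for 2 to 13 days. Whether a derivative line was 1 clone is not given in the sources used here, and the sources do not say that samples came from separate cultures, so p-values measure the spread between these samples.

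Editing levels are fractions between 0 and 1, and 0 was taken to mean that no level was recorded, since the list does not separate an unedited site from an uncovered one. A site is called found in a sample where its level was above 0. Of 58560 values at unannotated intronic sites, 2184 (3.73%) were above 0, against 5.52% at annotated intronic sites and 5.89% over the whole list. Read depth is not in the list, so single levels have no interval, and in bulk RNA more editing and more unspliced RNA at a site cannot be told apart as reasons for its being found. The number of these sites found in a sample ran from 1 to 113, with a median of 16. The names of etoposide and romidepsin samples in the time course conflict between sources of the study, so single values of these samples are given under the names used in the list.

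The sequences below are those on which the results turn, each 29 bases of GRCh38 in the sense of the edited RNA, with the listed adenosine in capitals. The first set holds sites that recurred in the most samples or had the highest levels.
ESPL1, chr12:53282025-53282053, plus strand: taaattggcggacaAgtcactggtgaggg
UPK2, chr11:118925708-118925736, plus strand: cgagggtccgggtcAcagcccccgggcgg
HEPH, chrX:66208767-66208795, plus strand: ataggctatggcttAgacttggctaatat
ABCF1, chr6:30574600-30574628, plus strand: aaactccttggaatAgcatataaagcctt
CFAP70, chr10:73299587-73299615, minus strand: gagctcagaaggcaAgtgccaaagccaag
KIAA1671, chr22:25178407-25178435, plus strand: gacttgtggctgccActtccaccagggca
NLK, chr17:28041876-28041904, plus strand: gccgggtgggggggAgggggggagacgga
SNRNP40, chr1:31288657-31288685, minus strand: tagcaaaaaaaaaaAaaaggctgttctga
The adenosine in NLK sat in a run of guanosines, and that in SNRNP40 in a run of adenosines. The next set comes from intron 1 of SLC25A21, a mitochondrial carrier of oxodicarboxylates, and is shown because its members mirror each other.
SLC25A21, chr14:37114687-37114715, minus strand: aattggttttctgtAaggatcacacatac
SLC25A21, chr14:37115386-37115414, minus strand: tatgtgtgatcctcAcagaaaacaaattc
SLC25A21, chr14:37114737-37114765, minus strand: cactggtttgcagaAgagtctgacaaaca
SLC25A21, chr14:37115347-37115375, minus strand: ttattcattcagatAtttgtcagactctt
The stretches at 37114751 and 37115361 were complementary over 14 consecutive bases although 610 bases apart, and those at 37114701 and 37115400 over 13 bases at a distance of 699 bases. The last set holds the E2F8 sites found after actinomycin D, the C15orf39 site of the late time course, and the THOC2 sites with levels.
E2F8, chr11:19239615-19239643, minus strand: acttggaattcagaAagggcatttgacat
E2F8, chr11:19239812-19239840, minus strand: attccagttgttcaAgaatcctcagaaat
E2F8, chr11:19239865-19239893, minus strand: aaattatcttaaaaAgaaattcagtctcc
E2F8, chr11:19239868-19239896, minus strand: tgaaaattatcttaAaaagaaattcagtc
C15orf39, chr15:75202565-75202593, plus strand: cagcccaggctggcAggatcgccctgagg
THOC2, chrX:123702051-123702079, minus strand: taattcttagaattAgataaattacttaa
THOC2, chrX:123702057-123702085, minus strand: taatcttaattcttAgaattagataaatt
THOC2, chrX:123727763-123727791, minus strand: actattttaaaagtAgaaaaaatgaatgc

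Most unannotated intronic sites were found in few samples. In the 96 samples 17 of the 610 sites (2.79%) were found in none, 100 (16.4%) in 1, 381 (62.5%) in 2 to 4, 75 (12.3%) in 5 to 9 and 37 (6.07%, 95% Wilson interval 4.43 to 8.25) in 10 or more. Of the annotated intronic sites, 13.4% (12.0 to 14.9) were found in 10 or more samples and 48.8% in 2 to 4. The authors' rule of at least 2 samples was applied over these and 34 further samples that were not used here, which is why a site can be found in 0 or 1 of the 96. The median site was found in 2 samples (quartiles 2 and 4, maximum 51), and the median annotated intronic site in 3 (quartiles 2 and 6, maximum 85). Of the unannotated sites, 242 were found in a single library set, 142 of them in 2 or more of its samples, and 26 in 5 or more sets.

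**Figure D1:**
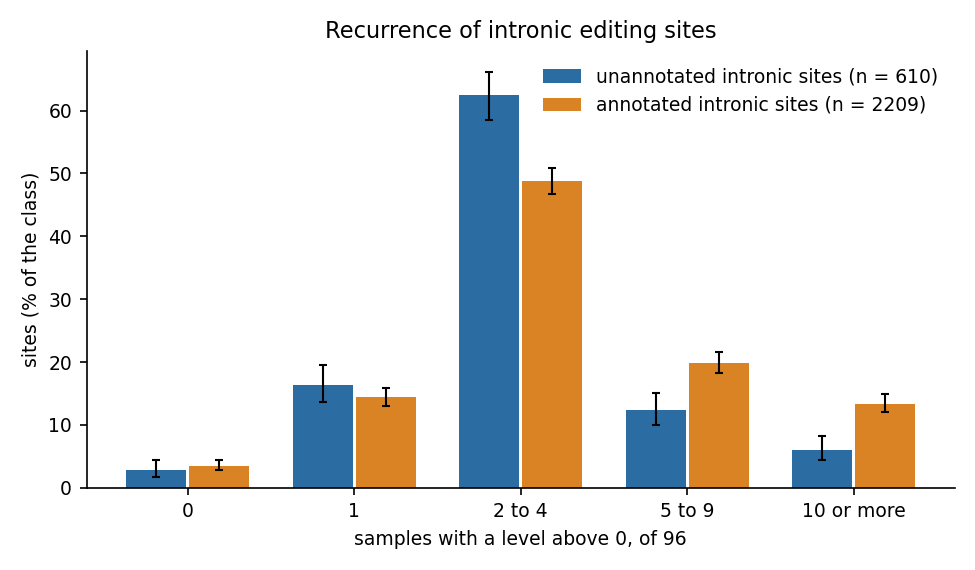
Share of sites (percent, y axis) by the number of the 96 samples in which a site was found (x axis), for 610 unannotated and 2209 annotated intronic sites, with 95% Wilson intervals as error bars. The bin of 2 to 4 samples held 62.5% of unannotated against 48.8% of annotated sites, and the bin of 10 or more held 6.07% against 13.4%.

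Within samples a smaller share of the unannotated class was found. The share was 3.73% ± 3.26 (SD, n = 96 samples) of unannotated and 5.52% ± 3.93 of annotated intronic sites, a difference of -1.79 percentage points, and it was lower in 79 of the 96 samples. A two-sided sign-flip permutation test over samples gave p = 2.00e-05, the smallest its 100000 resamples can give, and 4.00e-05 after adjustment over the 2 class comparisons. With 1 value per library set the difference was -1.90, negative in 9 of 10 sets (exact sign-flip p = 0.00586). The exception was the AsiSI-overexpression line, with a difference of 0.750 and a higher share in 3 of its 4 samples. Against the unannotated vlincRNA sites the difference was -0.282, which did not pass the test (permutation p = 0.488).

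Where they were found, the levels of unannotated intronic sites did not differ from those of annotated ones beyond the spread. In the 88 samples with at least 5 found sites of each class, the median level was 0.414 ± 0.0875 for unannotated and 0.419 ± 0.0763 for annotated sites. The difference of -0.00462 (SD of differences 0.0961) was smaller than the spread between samples, with 35 samples higher and 38 lower (permutation p = 0.652, also 0.652 after adjustment over 2). The result depended on clusters, which join listed sites within 100 bases on 1 strand. With only the first site of each cluster the difference was -0.0356 and passed (permutation p = 0.00258, n = 85, lower in 47 samples). Per site, the median level had quartiles of 0.255, 0.411 and 0.50, beside 0.250, 0.400 and 0.50 for annotated intronic sites. A level median of at least 0.9 was held by 3 unannotated sites, and one under 0.1 by 20.

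**Figure D2:**
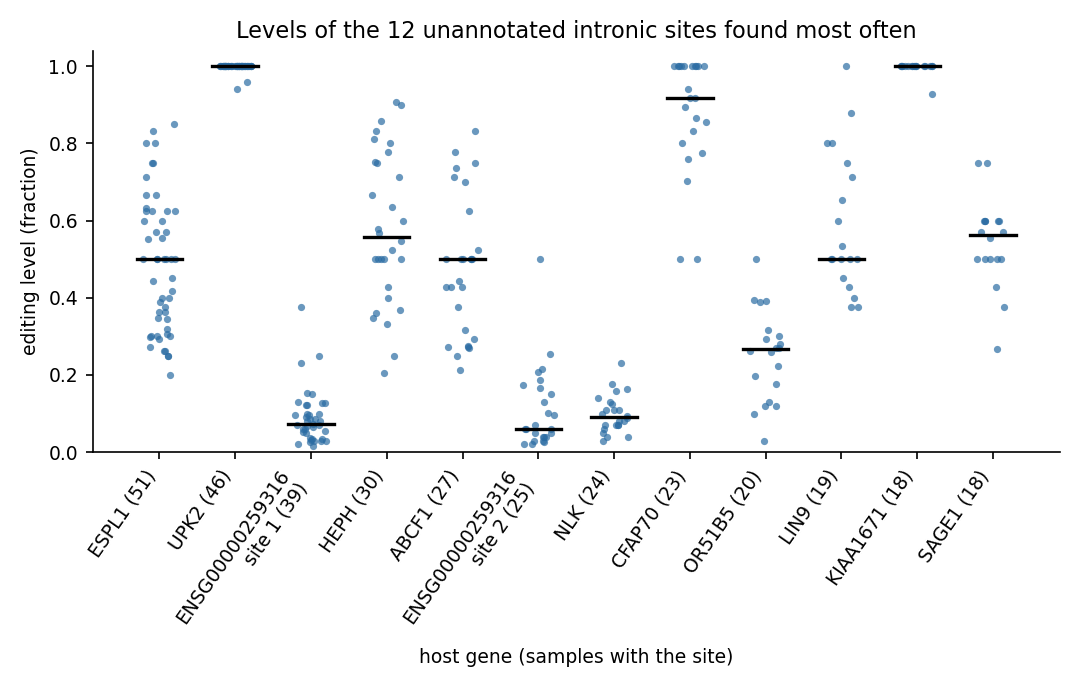
Editing level (fraction, y axis) of the 12 unannotated intronic sites found in the most samples. Points are samples with a level above 0 and bars are medians, which ran from 0.0600 at one site of ENSG00000259316 to 1.00 at UPK2 and KIAA1671.

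The site found most often lay in intron 13 of 30 of ESPL1, the gene of separase, the protease that opens cohesin rings. At position 53282039 of chromosome 12 a level was recorded in 51 samples, with a lowest of 0.20, a median of 0.50 and a highest of 0.850. It was found in 9 of 9 washout samples, with a median level of 0.298, in 4 of 4 mTOR inhibitor samples (0.478) and in 13 of 20 time course samples (0.600). No level was recorded in the kinase inhibitor or early romidepsin sets. The intron is 637 bases long and held 5 more members within 430 bases, found in 1 to 8 samples each. Of the 6 sites in ESPL1, 4 had an inverted copy of 16 bases or more nearby, and the longest at 53282039 itself was 13 bases.

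A few recurrent sites had levels at or near 1. The site in UPK2, which encodes a uroplakin of the bladder lining, was found in 46 samples, at exactly 1.00 in 44 of them and at no less than 0.942. It was found in 10 of 11 samples of the alpha-amanitin set but in 4 of 19 of the actinomycin D set. The site in intron 9 of 12 of KIAA1671 was found in 18 samples, 17 of them at 1.00 and the lowest at 0.929, and 9 of the 18 belonged to the alpha-amanitin set. The authors removed variants found by their resequencing of K562 DNA. DNA of these cells was not analysed here, and the part of any remaining sequence variants in such levels was not tested. CFAP70, a gene of cilia and flagella, had a site with levels of 0.50 to 1.00 (median 0.918) in 23 samples. SNRNP40, which encodes a U5 snRNP protein, had a median level of 0.873 over 10 samples, and ZBTB17, which encodes the transcription factor MIZ1, had 0.750 over 5.

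Other recurrent sites kept intermediate or low levels. The site in HEPH, the ferroxidase hephaestin, was found in 30 samples at 0.205 to 0.908 (median 0.557), and that in ABCF1, an ATP-binding cassette protein linked to translation, in 27 samples at 0.214 to 0.833 (median 0.50). LIN9, a subunit of the MuvB complex that controls cell cycle genes, and SAGE1, a cancer/testis antigen, had sites in 19 and 18 samples with medians of 0.50 and 0.563. The 2 sites in ENSG00000259316 were found in 39 and 25 samples at median levels of only 0.0733 and 0.0600. NLK, a kinase related to the MAP kinases, had a site at a median of 0.0914 over 24 samples, with a highest level of 0.231. The site in OR51B5, an olfactory receptor gene beside the beta-globin locus, had a median of 0.266 over 20 samples, and the gene models of HBG2 and HBE1, 2 globins that K562 cells express, overlap it on the same strand.

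The 610 sites and the 28 Sanger-only sites fell into 479 host genes. Of these genes 394 held 1 site, 48 held 2 and 37 held 3 or more, together 148 sites. A total of 322 host genes held no annotated intronic site, and the 157 genes with both kinds held 264 of the 638 sites. FRRS1, a ferric chelate reductase, held 8 sites, 7 of them in intron 6 of 16 and found in up to 9 samples. OR51B5 also held 8, found in 2 to 20 samples. ATF6, a transcription factor of the endoplasmic reticulum stress response, held 7 within 9 bases, of which 6 were found by Sanger sequencing only and 1 had a level, 0.50 in 1 sample. IGF2BP3, an RNA-binding protein, held 6 sites, found in 2 to 7 samples each.

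SLC25A21 held 6 sites with levels and no annotated intronic site. The site at 37115361 was found in 9 samples at 0.50 to 0.857, among them imatinib at 24, 36 and 48 h with levels of 0.857, 0.670 and 0.683. The site at 37114701 was found in 8 samples at 0.429 to 0.789 and again in the imatinib samples at 24, 36 and 48 h (0.789, 0.50 and 0.600). Both were also found outside the time course. The site at 37115361 was found in 3 samples of drugs followed by actinomycin D, 1 of the set with actinomycin D alone and 1 of a derivative line. The site at 37114701 was found in 2 samples of drugs followed by actinomycin D, 2 with mTOR inhibitors and 1 of the early romidepsin set. Its complementary partner at 37115400 was found in 3 samples (0.282, 0.359 and 0.404). The sixth site, 36979201, lay 135500 bases from the nearest of these, in 2 samples at 0.423 and 0.857.

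THOC2, a subunit of the THO complex in mRNA export, held 6 sites, 3 of them with levels. The site at 123702065 was found in 5 samples (0.249, 0.270, 0.429, 0.50 and 0.714), that at 123702071 in 2 (0.300 and 0.50) and that at 123727777 in 4 (0.111, 0.280, 0.364 and 0.50). All but 4 of these 11 values came from the time course. The 3 Sanger-only sites lay 3 to 5 bases from the last one, and 0 of the 6 had an inverted copy of 16 bases or more.

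Few host genes belonged to the pathway lists. Of 68 DNA damage response and repair genes, 2 hosted members, the helicase gene BLM with 3 sites and BRCA1 with 1, the latter at 0.50, 0.50, 0.50 and 0.800 in 4 samples. Of 74 chromatin regulators 7 were hosts with 11 sites, among them SUZ12 of Polycomb repressive complex 2, KANSL1 of the NSL acetyltransferase complex, ARID1B and ARID1A. A site in KANSL1 was found in 9 samples at 0.332 to 0.667. Of 58 RNA processing and export genes 3 were hosts with 12 sites, THOC2, the nuclear m6A reader YTHDC1 and the splicing regulator MBNL1. Of 21 genes of RNA editing and double-stranded RNA sensing, 0 were hosts of either intronic class. Of 40 erythroid and leukaemia genes 3 were hosts with 5 sites, ABL1, MYB and the GATA1 cofactor ZFPM1. Host shares were 0.418% of 479 for DNA repair and 1.46% for chromatin, beside 1.34% and 1.47% of the 747 hosts of annotated intronic sites. For RNA processing and for erythroid and leukaemia genes they were 0.626% each, beside 0.535% each. ABL1, the tyrosine kinase fused to BCR in this leukemia, had a site in intron 5 of 10 that was found in 16 samples, with a lowest level of 0.120, a median of 0.198 and a highest of 0.800.

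The base directly before the sites followed the known preference less closely than that before annotated sites. Uridine preceded 46.1% of the 610 sites (42.1 to 50), adenosine 29.5%, cytidine 15.7% and guanosine 8.69% (6.70 to 11.2). For annotated intronic sites uridine preceded 51.1% (49.0 to 53.2) and guanosine 2.63% (2.04 to 3.38), while over all adenosines of the host introns of unannotated sites these shares were 24.6% and 20.5%. Guanosine followed 48.0% of unannotated and 43.1% of annotated sites, beside 24.4% of host intron adenosines. These shares are descriptions without a test, because sites of 1 cluster share sequence.

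The share with a preceding guanosine differed by recurrence and by method. It was 22% (15 to 31.1) among the 100 sites found in 1 sample, where uridine preceded 32.0%, and 6.94%, 3.68%, 6.67% and 8.11% among those found in 2, 3 to 4, 5 to 9 and 10 or more samples. Among annotated intronic sites found in 1 sample it was 2.52%. Every member with levels had been detected by RED-ML, which the authors required of this class, 237 by it alone, 229 also by REDItools, 78 also by SPRINT and 66 by all 3 tools. A guanosine preceded 14% (10.1 to 19.1) of those shared with REDItools and 5.91%, 5.13% and 4.55% of those found by RED-ML alone, with SPRINT and by all 3.

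Annotated sites were seldom near. An annotated site of the list lay within 10 bases of 47 members (7.70%), within 100 bases of 94 (15.4%) and within 1000 bases of 139 (22.8%). Of annotated intronic sites 69.3% had another annotated site within 100 bases, and the median distance was 17.0 bases, against 260626 for the unannotated sites. Any other listed site lay within 100 bases of 189 members (31%), and these had a preceding guanosine in 4.76%, the 421 isolated ones in 10.5%. The nearest pairs were 1 base apart and included EMC1, a subunit of an endoplasmic reticulum insertase, TUT4, a terminal uridylyltransferase, ASPM, a spindle protein, and 2 sites of RAB3GAP2, a regulator of Rab3 GTPases. The EMC1 site was found in 11 samples, 10 of them treated with actinomycin D, at 0.0435 to 0.50. The first site of RAB3GAP2 had levels of 0.0294 to 0.142 in 11 of 12 samples and 0.750 in the other.

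Inverted copies were present near a minority of the sites. For each site the longest stretch of the surrounding 101 bases with an exact reverse complement within 2000 bases was measured, beside the longest direct copy, which cannot form a hairpin. An inverted copy of 16 bases or more was present for 144 of the 610 sites (23.6%, 20.4 to 27.1) and a direct copy of that length for 22 (3.61%, 2.39 to 5.40). For annotated intronic sites the shares were 52.7% (50.6 to 54.8) and 1.90%. The median longest inverted copy was 11.0 bases for unannotated and 16 for annotated sites. It was longest, 66 bases, at the site in MTFR2, a mitochondrial fission regulator, followed by 58 and 50 bases at 2 sites in DBF4, the activating subunit of the CDC7 kinase.

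**Figure D3:**
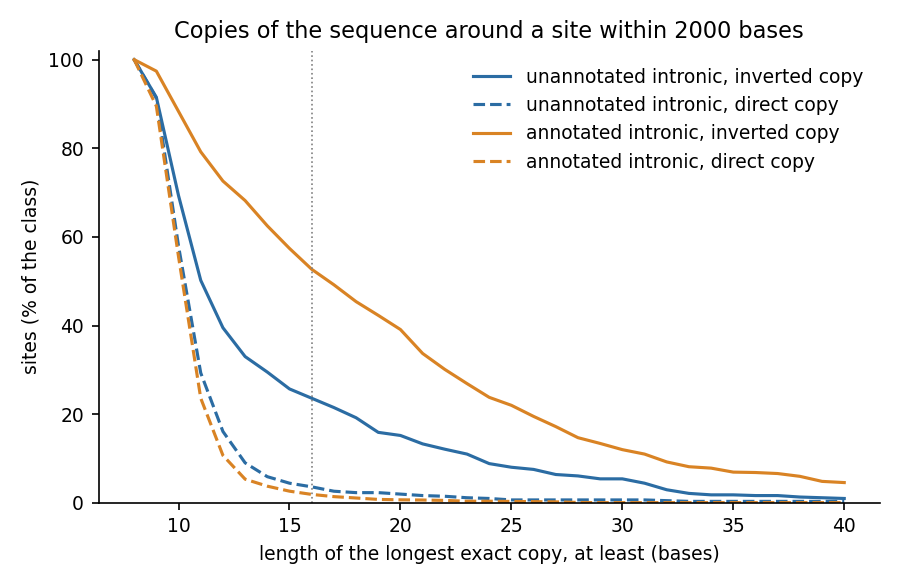
Share of sites (percent, y axis) whose surrounding 101 bases held an exact copy of at least the length on the x axis (bases) within 2000 bases, as inverted or direct copies, for unannotated and annotated intronic sites. At 16 bases the inverted share was 23.6% of unannotated and 52.7% of annotated sites, and the direct shares were 3.61% and 1.90%.

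The base before the site differed between members with and without an inverted copy. It was a guanosine in 2.78% (1.09 to 6.92), against 10.5% (8.05 to 13.6) of members without one. Among annotated intronic sites these shares were 2.66% and 2.58%. The share with an inverted copy was 42.9% of members with a neighbor within 100 bases and 15% of isolated ones, where neighbors share most of the bases compared. The share was 15% of sites found in 1 sample, 33.3% in 5 to 9 and 13.5% (5.91 to 28.0) in 10 or more, and the sites in UPK2, KIAA1671, CFAP70 and HEPH had a longest inverted copy of only 10 bases each. When 401 bases around each site were folded in silico, 48.9% of the edited adenosines were paired, beside 49.9% of the other adenosines of the same windows. For annotated sites these shares were 48.2% and 50.2%.

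Within introns, unannotated sites lay nearer to splice sites than annotated ones. The sites that could be placed between annotated splice sites of 1 transcript (552 of 610) lay in introns with a median length of 10616 bases, against 11928 for annotated sites, and 32.4% against 30.9% lay in the first intron. The distance to the nearest splice site had quartiles of 650, 1996 and 6677 bases, against 1188, 2967 and 8533 for annotated sites, a description without a test. A splice site was within 10 bases of 9 of the 552 (1.63%, 0.860 to 3.07) and of 0 of 2103 annotated intronic sites, which allows a share of up to 0.182% by the Wilson interval. Of these 9, 7 lay at the 5′ end of the intron, in CFAP70, LARP4, MRPL47, MAN2A1, FKBP15, SEC16A and OCRL, and 2 at the 3′ end, in UBE2G1 and PDCD5. The CFAP70 site was 4 bases from the 5′ end of intron 14 of 27. SEC16A, which organizes endoplasmic reticulum exit sites, had its site in 8 samples at 0.220 to 0.833 (median 0.50), LARP4, an RNA-binding protein, in 4 at 0.120 to 0.203, and the others in 1 to 3 samples.

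**Figure D4:**
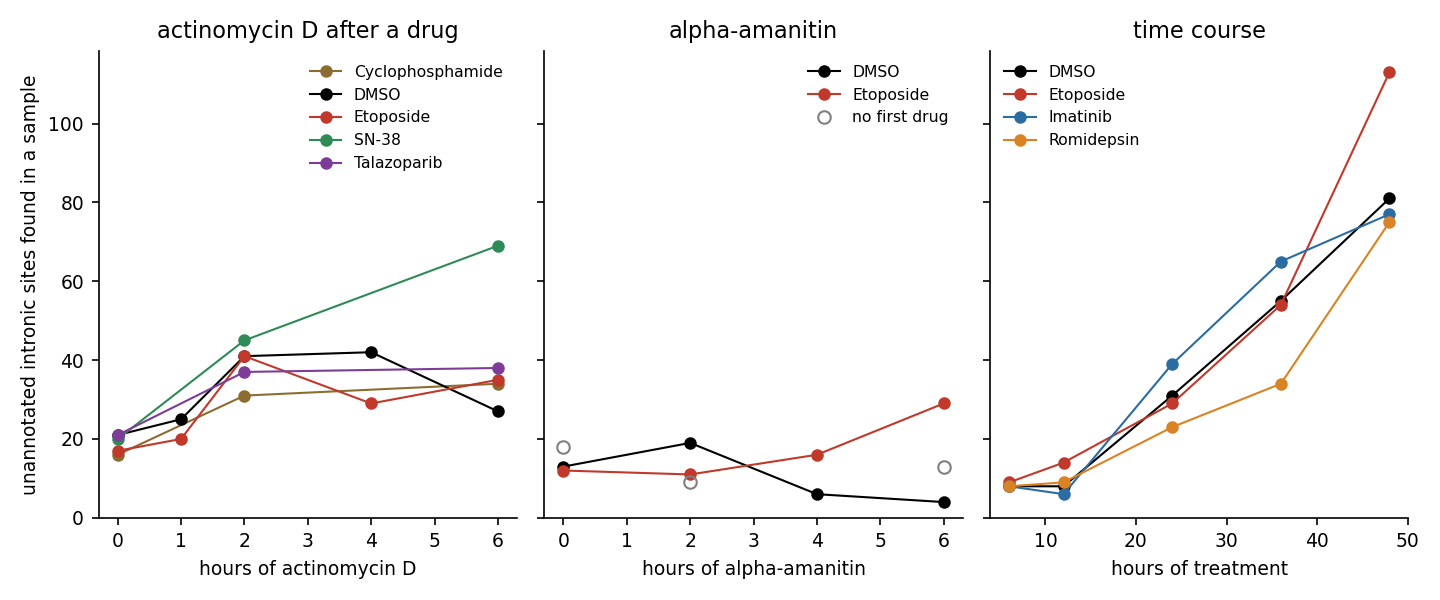
Number of unannotated intronic sites found per sample (y axis) against hours of treatment (x axis) in the time course, the actinomycin D chase and the alpha-amanitin set, by first drug. Open grey circles in the alpha-amanitin panel had no first drug, and the DMSO sample of that set is drawn at 0 h; counts reached 113 at 48 h in the time course, 69 after actinomycin D and 29 after alpha-amanitin.

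The time course showed the widest change in the number of sites found. At 6 and 12 h the 8 samples held 6 to 14 sites (8.75 ± 2.31), and at 24, 36 and 48 h the 12 samples held 23 to 113 (56.3 ± 26.9), so that the groups did not overlap. Under DMSO the counts were 8, 8, 31, 55 and 81 at the successive times, and under imatinib 8, 6, 39, 65 and 77. The difference of 47.6 sites had an exact two-sided permutation p of 1.59e-05, the smallest this design allows (adjusted p = 1.19e-04 over 15 tests, 5 contrasts of 3 measures). Annotated intronic sites rose as well, from 48 to 82 per sample to 127 to 432. Unannotated intronic sites made up 5.81% ± 1.56 of all found sites early and 12.5% ± 3.74 late, a difference of 6.73 percentage points without overlap (exact permutation p = 1.59e-05, adjusted 1.19e-04). Their median level was lower late, 0.314 ± 0.0674 against 0.465 ± 0.0682 (difference -0.151, exact permutation p = 4.60e-04, adjusted 0.00230). With 1 site per cluster this difference was -0.0762 and did not pass (adjusted exact permutation p = 0.176). The median level of annotated intronic sites also tended lower late, at 0.322 to 0.429, against at least 0.414 in every early sample. Whether the late difference in level was larger for unannotated than for annotated intronic sites was not tested. A member that passed the authors' filter of at least 2 samples and a highest level above 0.2 only through late samples had to be counted as higher there. Among the 322 members that passed it in samples outside the time course, 14 to 41 were found late (24.6 ± 8.93) and 4 to 8 early (6.75 ± 1.39), again without overlap (difference 17.8, exact permutation p = 1.59e-05, adjusted 1.19e-04). Their percent of found sites differed by 3.54 points (adjusted exact permutation p = 0.00254, above all early samples in 9 of 12), and their level by -0.0653, which did not pass (adjusted 0.520). These contrasts join all drugs at a time, so an exchange of etoposide and romidepsin names at the same time leaves them unchanged, and the part of read depth, which the list does not give, was not tested.

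No single member passed the per-site test for the time course. Fisher's exact test of found against not found, adjusted over all 2156 sites of the list found in the contrast, called 0 of 304 members, where 0% of all tested sites were called. At an unadjusted p under 0.05, 13 members remained, 11 of them found more often late, which is 3.62% of members against 6.12% of all sites tested. Of the 304 members 258 (84.9%) were found only late, 35 at both and 11 only early, with 12 late and 8 early samples. Only late were also 72.7% of the 1277 annotated intronic sites of the contrast and 67.9% of all 2156 listed sites. The site in C15orf39 was found in 11 of 12 late and 0 of 8 early samples (Fisher's exact p = 7.14e-05, adjusted 0.135). Counting only levels of at least 0.2 left these numbers as they were, and it was then the 1 member called (adjusted Fisher's exact p = 0.0449), where 0.159% of all sites were called. Its late levels were 0.304 to 0.856. In TSC1, which encodes an inhibitor of mTORC1 signaling, a site was found in 10 of 12 late and 0 of 8 early samples (adjusted Fisher's exact p = 0.135) at 0.0667 to 0.489. The TSC1 site had no level in the other library sets. Among the samples used here it passed the authors' filter only through late ones, so its late excess was set by selection. The C15orf39 site was also found in 3 chase samples and 1 AsiSI-overexpression sample. Both sites were chosen after values were seen.

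After actinomycin D more unannotated intronic sites were found. The 5 samples at 0 h held 16 to 21 sites (19.0 ± 2.35), and the 14 samples at 1 to 6 h held 20 to 69 (36.7 ± 11.7), of which 13 exceeded all 0 h samples. After 2 h the 5 first drugs gave 31 to 45 sites, and after 6 h 27 to 69, the highest after SN-38. The difference of 17.7 sites had an exact permutation p of 6.88e-04 (adjusted 0.00258). Annotated intronic sites numbered 118 to 198 at 0 h and 63 to 249 later. The same limit of the filter holds here: among the 324 members that passed it outside the chase, 8 to 15 were found at 0 h (11.0 ± 3.08) and 9 to 29 later (16.9 ± 5.27), a difference of 5.93 that did not pass (adjusted exact permutation p = 0.0640). Unannotated sites made up 6.67% ± 1.07 of found sites at 0 h and 12.3% ± 3.98 later, a difference of 5.63 percentage points (adjusted exact permutation p = 0.0134, higher than all 0 h samples in 12 of 14). Among members passing the filter outside the chase the difference was 3.19 (adjusted exact permutation p = 0.0459). The call was lost with 1 site per cluster (5.56, adjusted exact permutation p = 0.0862) and when only levels of at least 0.2 counted (4.73, adjusted 0.103). The median level, 0.451 ± 0.0727 after and 0.372 ± 0.0782 before, did not pass (adjusted exact permutation p = 0.174). In the set with actinomycin D alone, 39 sites were found at 2 h and 25 at 6 h, against 10 and 6 with DMSO and 10 in the untreated sample.

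Per site, 0 of 294 members passed in the chase by Fisher's exact test, where 0.231% of all 2168 tested sites were called. At an unadjusted p under 0.05 there were 6, and 4 of them were found more often after actinomycin D, 1.36% of members against 1.48% of all sites. Among sites found in at least 3 of these samples, 2 members passed, in CYRIB and ABL1, each found in 4 of 5 samples at 0 h and 0 of 14 later (Fisher's exact p = 0.00129, adjusted 0.0492), where 2.62% of all sites were called. With levels of at least 0.2 alone, 0 members passed, where 0.208% of all sites were called. The ABL1 levels at 0 h were 0.140, 0.159, 0.201 and 0.800. The OR51B5 site at 5468748 was found in 12 of 14 later samples and 1 of 5 at 0 h (adjusted Fisher's exact p = 0.721), and the EMC1 site in 9 of 14 and 0 of 5 (adjusted 0.857).

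In the chase 222 of the 294 members (75.5%) were found only after actinomycin D, beside 56.2% of 1113 annotated intronic sites and 58.1% of all 2168, with 14 later samples and 5 at 0 h. Over all 96 samples, 77 of the 593 members found anywhere (13.0%, 10.5 to 15.9) were found only in the 16 samples treated with it, and 120 of 2131 annotated intronic sites (5.63%, 4.73 to 6.69). The late time course, with 12 samples, held 86 exclusive members (14.5%) and 236 annotated sites (11.1%). The 8 samples treated with alpha-amanitin held 3 (0.506%) and 21 (0.985%), and the 16 of the derivative lines 8 (1.35%) and 8 (0.375%). Within the 96 samples an exclusive site could pass the authors' filter only through the samples it was exclusive to. Members were also found in fewer samples, a median of 2 against 3 for annotated intronic sites. The part of both in the shares found only in 1 group was not tested. The 4 members in intron 2 of E2F8, an atypical E2F repressor of cell cycle genes, gave 14 levels above 0, and all 14 were in samples treated with actinomycin D. These 4 were chosen after values were seen. Among the 96 samples they passed the authors' filter only through treated ones, so their exclusiveness was set by selection. The site at 19239629 had levels of 0.462, 0.333 and 0.250 at 2 h after DMSO, SN-38 and etoposide, and 1.00 at 6 h after SN-38 and after etoposide. The site at 19239882 was also found at 0.750 in the sample with actinomycin D alone for 6 h. All 4 had an inverted copy, of 32 to 41 bases, and an annotated site lay 49 to 204 bases away.

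Alpha-amanitin gave no difference past the test. The 3 samples without it held 12 to 18 sites (14.3 ± 3.21) and the 8 treated ones 4 to 29 (13.4 ± 8.02), a difference of -0.958 (adjusted exact permutation p = 0.974). The percent of found sites was 6.10 ± 1.42 and 6.46 ± 4.37 (adjusted 0.974), and of 94 members tested per site 0 were called by Fisher's exact test, where 0% of all 1155 sites were called. At an unadjusted p under 0.05 there were also 0 members, and 0.0866% of all sites were found more often after alpha-amanitin. The smallest p per site in this design is 0.00606, and the test called no site even where sites were simulated to change. It therefore cannot show whether single sites differ. At matched first drug and time, DMSO or etoposide and 2, 4 or 6 h, actinomycin D samples held 41, 42, 27, 41, 29 and 35 sites and alpha-amanitin samples 19, 6, 4, 11, 16 and 29. The actinomycin D count was higher in 6 of 6 pairs by a mean of 21.7 (exact sign-flip p = 0.0312, the smallest for 6 pairs, 0.0625 adjusted over 2). The percent differed by 5.13 points, higher in 5 of 6 (exact p = 0.0938, adjusted 0.0938). At 0 h the counts were already 21 and 17 against 13 and 12, and the agent and the library set cannot be told apart. Members that passed the authors' filter only through actinomycin D samples had to be counted as higher there. Over all 96 samples, 77 members were found only in actinomycin D treated samples and 3 only in alpha-amanitin treated ones. The pairs were not compared without such members, so these differences cannot be separated from that selection.

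Imatinib, an inhibitor of the BCR-ABL1 kinase, gave no difference from DMSO past the test. The counts were 39 ± 32.3 and 36.6 ± 31.5 over the 5 times (adjusted exact permutation p = 0.974), the percents 8.25 ± 4.13 and 8.60 ± 3.61 and the levels 0.358 ± 0.111 and 0.397 ± 0.130 (both adjusted 0.974, exact permutation). Most of this spread lay between times. Paired by time, the count differed by 2.40 ± 6.23 (SD of differences, -4.00 to 10.0, higher in 2 and lower in 2 of 5 pairs, exact sign-flip p = 0.50) and the percent by -0.352 ± 0.735 (lower in 4 of 5, exact p = 0.375), and 5 pairs cannot give a p below 0.0625. Per site 0 of 212 members were called (0% of 1664 sites, Fisher's exact test). The smallest p per site in this design is 0.00794, and the test called no site even where sites were simulated to change. It therefore cannot show whether single sites differ. At an unadjusted p under 0.05 there were also 0 members found more often under imatinib, where 0.240% of all sites were.

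In the derivative lines doxycycline was set against water in 8 pairs of the same line and day. The counts were 6.62 ± 4.03 and 8.38 ± 7.13, a difference of -1.75 (exact sign-flip p = 0.406, adjusted 0.871), and neither the percent (9.74 ± 4.30 against 11.5 ± 7.79) nor the level (0.445 ± 0.0938 against 0.454 ± 0.0866) passed (adjusted exact p = 0.974 for both). Of 80 members tested per site 0 were called (0% of 602 sites, and 0 members at an unadjusted p under 0.05, Fisher's exact test). The test per site did not use the pairs. Only 106 of the 602 sites were found in at least 3 of these samples, and sites found in fewer cannot pass it. For those it cannot show whether single sites differ. The lines with Cas9_overexpression, LINE_overexpression or shRNA held 1 to 9 sites per sample. The AsiSI-overexpression line, made to express a restriction enzyme that cuts DNA, held 9 to 23, with 1 sample per condition. With doxycycline it held 9 sites at 4 days and 14 at 13 days, which were 15.5% and 10.9% of found sites. With water it held 14 and 23, which were 24.1% and 22.8%.

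With the 3 kinase inhibitors before Talazoparib, SN-38, Etoposide and Mirin the counts were 33, 44, 39 and 27, and with DMSO before them 13, 33, 27 and 38. With 1 sample per condition these are descriptions. Counts under pretreatment were higher for the first 3 agents and lower for Mirin. As percent of all found sites they were 11.2, 9.82, 10.1 and 8.33 with the inhibitors, and 5.10, 10.1, 6.94 and 10.1 with DMSO. By this share pretreatment was lower for SN-38 as well as for Mirin. Talazoparib was given for 3 h and the other agents for 6 h. DMSO after DMSO held 20 sites at 3 h (8.20%) and 20 at 6 h (8.00%).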

How the data were processed

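RNA-seq of total RNA from K562 and derivative lines was reduced by the authors to a list of editing sites. The deposited values are editing levels, a fraction from 0 to 1 per site and sample, which the authors averaged over the tools that detected the site. The submitters' processing notes name TopHat2 2.1.1, Picard 2.0.1 and SAMtools 1.9 with GRCh38. RED-ML, REDItools and SPRINT were run on each sample. The authors took out public variants, variants from their own resequencing of K562 DNA, repeats and poorly mappable regions. They kept sites found in at least 2 samples whose highest level exceeded 0.2. The authors also tested part of the unannotated intronic candidates by Sanger sequencing, which showed editing at some and not at others. A place in the list is thus no proof of editing at a single site. They kept unannotated intronic sites only where RED-ML had detected them, and annotated sites by other tools also. These filters bear on recurrence and on sequence near the sites, and the list cannot show what they removed. Read depth is not in the list.

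Of the sample columns 96 were used, and 34 of samples not analysed here were not. The untreated column was matched to its group only. Library sets follow the study's internal sample identifiers. Genes and introns came from GENCODE release 44, whereas the authors used an earlier release, and sequences from GRCh38. Samples were compared by two-sided exact permutation of labels, or sign-flips over pairs, library sets or, with 100000 resamples, samples, and sites by Fisher's exact test over the whole list. Benjamini-Hochberg adjusted p-values were called below 0.05. Shares of sites have 95% Wilson intervals, which cover counting error only. Tests were tried on simulated data, where the Fisher test made no call in the alpha-amanitin and imatinib designs even for sites simulated to change. Python 3.11.15, numpy 2.4.6, scipy 1.17.1, pandas 2.3.3, matplotlib 3.10.9 and ViennaRNA 2.7.2 were used.

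The members, gene lists and tests were chosen with earlier results of these data known. Named sites were the 12 found in the most samples, those of the 6 genes with the most members, the 5 highest medians among sites in at least 5 samples, the 5 nearest to an annotated site, all of THOC2, those called by site and up to 4 genes of each list. Sites in E2F8, C15orf39, TSC1, MTFR2, DBF4 and at splice sites, and the copy analysis, matched agents, exclusive sites and the restriction to sites passing the filter outside a contrast were chosen after values were seen. Distance to repeats was not computed for want of a repeat annotation in this work. Sanger-only sites entered no test, and 2 whose reference base is T were left out of sequence shares.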

Additional observations from a re-analysis of the deposited data

Results flagged for a closer look

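In the alpha-amanitin set, unannotated intronic sites made up 15.9% of found sites in the sample with etoposide for 6 h and then alpha-amanitin for 6 h, far above the other treated samples. In the early time course, the sample named etoposide at 12 h held 14 of these sites, far above the other 7. These were 2 of 21 groups checked by Dixon's criterion, which chance alone meets in about 1 of 20 groups.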

How the results depend on the processing

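Of 92 alternatives 66 left both the direction and the side of the threshold as they were, 16 turned the direction, and 183 of 204 results with 1 sample or pair left out were likewise kept. The within-sample level difference between the intronic classes was -0.0356 with 1 site per cluster, and turned to 0.00402 with means, 0.00591 with at least 10 sites of each class, 0.00568 per library set and 0.0118 against vlincRNA sites. The share difference against vlincRNA sites was -0.282 and did not pass. The percent of found sites in the chase did not pass at 4.73 (levels of at least 0.2) and 5.56 (1 site per cluster), nor did the late level at -0.0762 (1 site per cluster). Among sites passing the authors' filter outside the contrast, chosen after seeing the data, the chase number (5.93) and the late level (-0.0653) did not pass, and the uncalled alpha-amanitin number (0.417) and level (0.0503) and doxycycline level (0.00611) turned. Results that were not called turned as follows: alpha-amanitin number 1.67 (only samples with a first drug) and 0.208 (levels of at least 0.2), percent -1.01 (1 site per cluster) and level 0.0396 and 0.0159 (the same settings in turn); imatinib percent 0.124 (of intronic sites only, chosen after seeing the data) and level 0.0105 (1 site per cluster); doxycycline percent 2.63 (1 site per cluster) and level 0.0134 (levels of at least 0.2). Calls per site were 2 in the chase (sites in at least 3 samples) and 1 in the time course (levels of at least 0.2), and 22.8% of members had an annotated site within 1000 bases. Leaving out 1 sample, the chase level difference ran from 0.0603 to 0.110 and passed without etoposide at 0 h (adjusted exact permutation p = 0.0474) or cyclophosphamide at 2 h (0.0408), its p otherwise reaching 0.431. The alpha-amanitin number ran from -3.19 to 0.875, percent -0.991 to 1.02 and level -0.0402 to 0.0193; imatinib number -7.10 to 13.5 and percent -1.62 to 0.784; doxycycline level -0.0255 to 0.0264. The called differences kept their calls, from 15.2 to 19.0 sites and 5.18 to 6.16 points in the chase, and 42.4 to 50.6 sites, 5.96 to 7.14 points and -0.170 to -0.141 in level in the time course. Causes were not tested. Permuting within the first drug, the drug or the time changed no call of the chase, the time course or imatinib. No paired analysis was possible by replicate number because these numbers are shared only between conditions of different library sets that no comparison sets against each other. Pairs by line and day, by first drug and time, and by time are given with their results. The distance to repeats was planned and not run. Levels carry no read counts, so unfound and uncovered sites cannot be told apart.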
